A study of Mus musculus with 18 samples.

Results

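The matrix metalloproteases and their tissue inhibitors were followed in mouse tail-tip fibroblasts as a set of 10 named genes, out of 24445 gene symbols in the expression table. The set holds 7 metalloproteases, Mmp2, Mmp3, Mmp10, Mmp13, Mmp14, Mmp19 and Mmp23, and 3 inhibitors, Timp1, Timp2 and Timp3. They were taken by symbol, with the transcript of highest mean abundance standing for each gene, and all 10 passed the filter on low values. RNA was sequenced from primary fibroblasts of mice aged 2 months, harvested at passage 5, in a study of Cas9 editing of the Lmna gene in a mouse model of Hutchinson-Gilford progeria. Cells of 3 genotypes were used. Pro/Pro;Cas9/+ mice are homozygous for the progeria allele and carry a Cas9 transgene, and their cells are called Pro/Pro Cas9 cells here. Pro/+; +/+ mice are heterozygous for the progeria allele and have no Cas9 transgene (Pro/+ cells), and +/+;Cas9/+ mice have Cas9 and no progeria allele (wild-type Cas9 cells). A comparison of Pro/+ cells with wild-type Cas9 cells therefore also compares cells without and with Cas9. Cells of each mouse were given gLmna-2 or gLmna-1, which are guide RNAs against Lmna, or gMock, a guide with no match in the genome. All guides came in lentivirus that also carried mCherry, with 4 µg/ml Polybrene. More than 80% of cells were mCherry-positive, and cells were neither sorted nor selected, so each library is a mixture of transduced and untransduced cells. There were 2 mice per genotype, 18 libraries and 9 groups of 2. The name of the second Pro/+ mouse joins a pair of numbers, and the labels do not say whether it was 1 animal or a pool.

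Matrix metalloproteases are zinc-dependent enzymes that are made as inactive proenzymes and, once cleaved, cut proteins of the extracellular matrix and of the cell surface. The tissue inhibitors of metalloproteases bind the active site of these enzymes and are secreted by the same fibroblasts. Some pairs work together: Timp2 in small amounts bridges the membrane enzyme Mmp14 to pro-Mmp2 and so helps to activate it, while in excess it blocks both.

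The inhibitors were the most abundant of these transcripts. Levels are given in FPKM, fragments scaled by transcript length and by the mapped reads of a library, so that levels can be set side by side between genes. Over the 18 libraries Timp1, a soluble inhibitor, averaged 1109 FPKM, Timp2 averaged 939 FPKM, and Timp3, an inhibitor held in the matrix, averaged 551 FPKM. Among the enzymes, Mmp2 (gelatinase A) averaged 298 FPKM, Mmp14 (membrane type 1 metalloprotease) 288 FPKM and Mmp13 (collagenase-3) 264 FPKM. Mmp3 (stromelysin-1) averaged 126 FPKM, Mmp23 (a small membrane-bound member without a hemopexin domain) 44.7 FPKM and Mmp19 (a broadly expressed secreted member) 36.2 FPKM. Mmp10 (stromelysin-2) was the lowest at 8.83 FPKM. The neighbours Mmp2, Mmp14 and Mmp13 in this order lay within each other's ranges.

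The genes differed widely in their spread over libraries. Mmp13 spanned 33.2 to 781 FPKM over the 18 libraries, with a median of 191 FPKM and a ratio of highest to lowest of 23.5. Mmp10 spanned 1.68 to 34.6 FPKM around a median of 4.60, a ratio of 20.6. Mmp3 followed with 35.8 to 260.1 FPKM around 107, a ratio of 7.26. The other 7 genes stayed within a ratio of 4.08 or less, with Timp1 at 503 to 2049 FPKM and Mmp23 at 17.7 to 71.0 FPKM. Mmp19 moved least, from 28.6 to 40.4 FPKM, a ratio of 1.41. The 3 genes with the widest ranges were the collagenase and the pair of stromelysins.

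**Figure D1:**
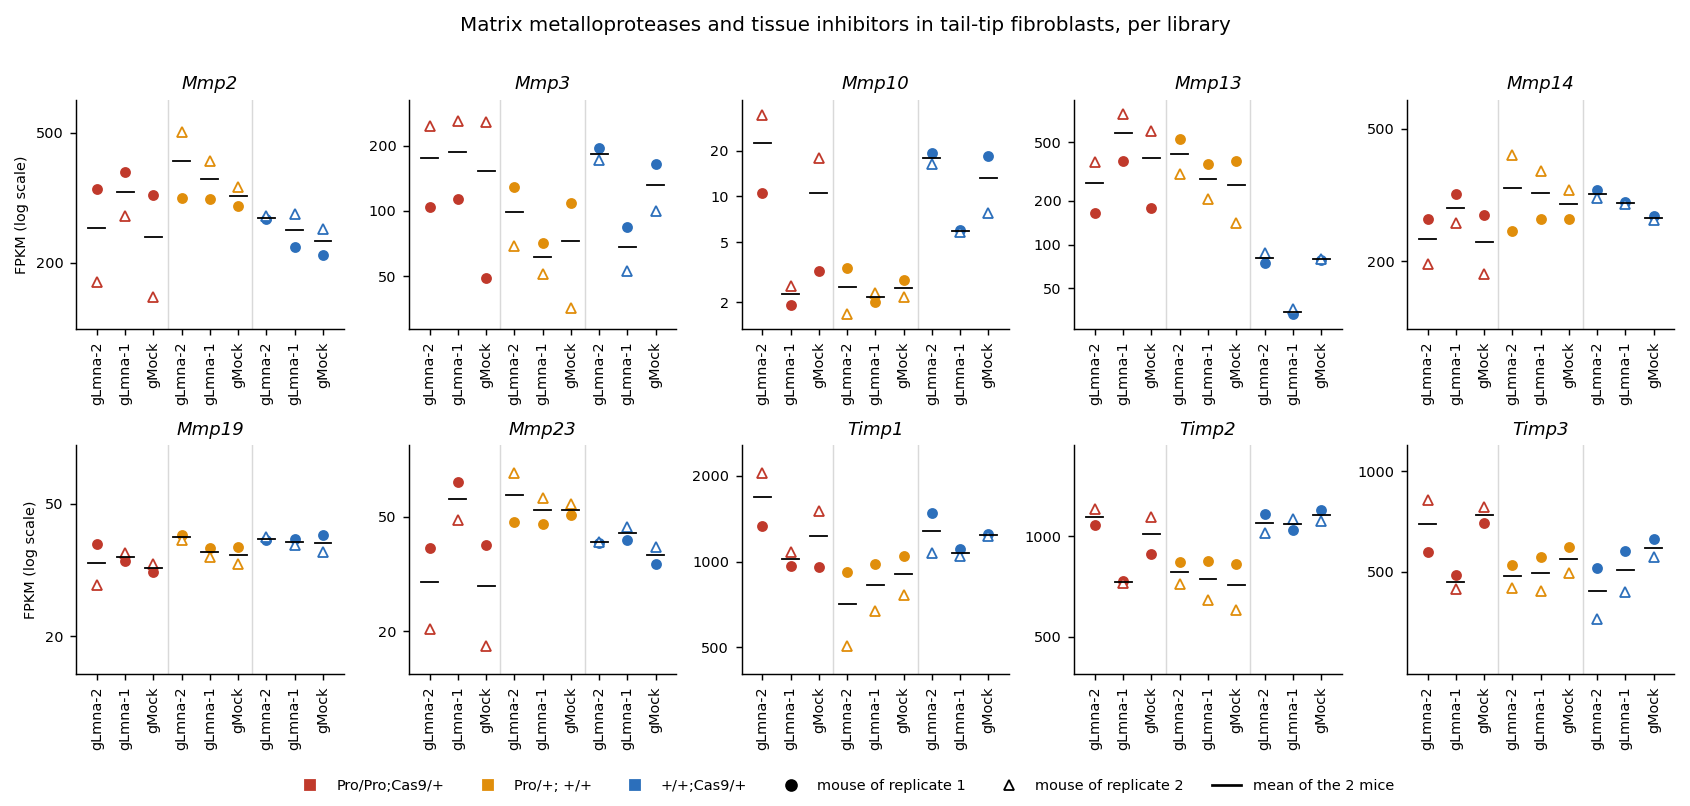
FPKM on a log scale for the 10 genes in each of the 18 libraries; groups run along the x axis by genotype and guide, and each point is 1 library of 1 mouse. Mmp13 spans 33.2 to 781 FPKM and Mmp10 spans 1.68 to 34.6 FPKM, while Mmp19 stays between 28.6 and 40.4 FPKM.

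The collagenase and both stromelysins sit together in the genome. In mm10, Mmp13 lies on chromosome 9 at 7272514 to 7283333, Mmp3 at 7445822 to 7455974 and Mmp10 at 7502342 to 7510242, all on the plus strand and in a cluster of 10 metalloprotease genes. The start of Mmp13 and the end of Mmp10 are 238 kb apart. The other members of the cluster were Mmp12, which reached 24.9 FPKM, and Mmp1a, Mmp1b, Mmp7, Mmp8, Mmp20 and Mmp27, of which Mmp8 reached 1.03 FPKM in 1 library and the rest stayed below 1 FPKM. The other genes are dispersed. Mmp2 lies on chromosome 8 (92827297 to 92853421), Mmp14 on chromosome 14 (54431598 to 54442456), Mmp19 on chromosome 10 (128790910 to 128800827) and Mmp23 on chromosome 4 (155650655 to 155653290). Timp1 lies on chromosome X (20870166 to 20874737), Timp2 on chromosome 11 (118301061 to 118355411) and Timp3 on chromosome 10 (86300412 to 86349505). Exons of Mmp19 share 792 bases with Tmem198b on the opposite strand (18.5 to 24.3 FPKM), and since the strand used for counting was not given in the sources used here, reads of these 2 genes cannot be told apart. Timp1 and Timp3 lie within Syn1 and Syn3 on the opposite strand and Timp2 overlaps Cep295nl, with no shared exon bases in any of these pairs.

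The sequences before the starts of the 3 clustered genes are shown because these genes had the widest ranges and hold letters of the kinds known from metalloprotease promoters. Each line gives the 150 bases upstream of the start on the plus strand, from RefSeq on GRCm38.p6, with capitals marking an AP-1 site (TGANTCA, bound by Fos and Jun proteins), a Runx site (AACCACA) or a TATA box (TATAAA). Both strands were searched, and no marked sites overlap.
Mmp13, chr9:7272364-7272513, plus strand: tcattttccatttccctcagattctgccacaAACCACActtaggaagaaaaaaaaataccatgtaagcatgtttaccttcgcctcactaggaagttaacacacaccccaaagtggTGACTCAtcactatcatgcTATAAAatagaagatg
Mmp3, chr9:7445672-7445821, plus strand: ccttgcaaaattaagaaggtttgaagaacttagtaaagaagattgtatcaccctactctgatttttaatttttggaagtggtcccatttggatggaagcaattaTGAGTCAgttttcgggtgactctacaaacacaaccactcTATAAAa
Mmp10, chr9:7502192-7502341, plus strand: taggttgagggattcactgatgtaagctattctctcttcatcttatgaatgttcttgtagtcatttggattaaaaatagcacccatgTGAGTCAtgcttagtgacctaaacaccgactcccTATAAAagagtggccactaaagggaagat
All 3 windows hold the AP-1 letters followed by those of a TATA box. The first base of the AP-1 site was 35 bases before the start in Mmp13, 46 bases before it in Mmp3 and 63 bases before it in Mmp10. That of the TATA letters was 16 bases before the start in Mmp13, 7 in Mmp3 and 29 in Mmp10. The Runx site occurred in Mmp13 alone among these 3, at 119 bases before the start. Of 32851 promoter windows of 250 bases, 6.75% held the AP-1 letters, 4.40% the Runx letters, 12.4% the TATA letters and 1.21% both AP-1 and TATA. Those windows are longer than the 150 bases printed above. None of these letters was found in the windows of Mmp14, Mmp23, Timp1, Timp2 or Timp3, and Mmp2 and Mmp19 were not looked at. A match is a string of letters and was not tested as a binding site.

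Depth recovered from the steps of the values was 22424072 to 42625466 reads per library, and Mmp10, the lowest gene, rested on 80 to 1422 reads. Lmna itself was at 247 and 309.95 FPKM with gLmna-2, 249 and 217 FPKM with gLmna-1 and 246 and 369.8 FPKM with gMock in Pro/Pro Cas9 cells; the sum of reads does not show whether the gene was cut. Summed FPKM of 9 fibroblast markers was 7039 to 9527 in the 18 libraries. The 8 keratinocyte markers summed to 3.46 to 14.2 FPKM, with Dsp at 2.06 to 13.1 FPKM and Krt1, Krt14 and Krt5 at 0 in 18, 17 and 12 libraries. The 5 endothelial markers summed to 0.342 to 2.87 FPKM, with Cdh5 reaching 1.33 FPKM. Macrophage markers were present, with sums of 10 markers of 75.6 to 1666 FPKM, and so were cartilage and bone markers, with sums of 8 markers of 19.7 to 442 FPKM. In bulk RNA, fewer cells of a type and less RNA per cell cannot be told apart.

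Between the 2 Lmna guides in Pro/Pro Cas9 cells, most of these genes differed. With gLmna-2, the stromelysin Mmp10 and the inhibitors Timp1, Timp2 and Timp3 were higher than with gLmna-1, while the collagenase Mmp13 and the membrane enzyme Mmp23 were lower. These 6 of 10 genes passed an adjusted p of 0.05 (limma, Benjamini-Hochberg over all genes), in a comparison that called 9.96% of the 12593 tested genes. Of the 10, 4 were higher and 2 lower, against 6.92% and 3.03% of all tested genes. The median change of the 10 genes was −0.09 on the log2(FPKM + 1) scale, against 0.06 over all tested genes. Changes below are on that scale, which understates the change of low genes, and values are given for mouse 1 and then mouse 2 of a genotype. Where groups of 2 libraries are said below to lie apart or not to overlap, no share of all tested genes is given beside it. Such statements describe the values only.

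Mmp13 cuts fibrillar collagens and is the main interstitial collagenase of the mouse. It was at 164 and 365 FPKM with gLmna-2, against 373 and 781 FPKM with gLmna-1. Each gLmna-2 library lay below both gLmna-1 libraries, and the ratio within a mouse was 0.439 and 0.468. The change was −1.14 (SE 0.19, adjusted p = 0.00927).

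The stromelysins cut many matrix proteins and activate other proenzymes, and the 2 of them differed. Mmp10 was at 10.6 and 34.6 FPKM with gLmna-2, against 1.93 and 2.57 FPKM with gLmna-1. Both gLmna-2 libraries were above both gLmna-1 libraries, with ratios of 5.47 and 13.5 within the mice, and the change was 2.65 (SE 0.41, adjusted p = 0.00759). Mmp3 was at 104 and 246 FPKM with gLmna-2, against 114 and 260.1 FPKM with gLmna-1. Here the mice stood apart and the guides did not, and the change of −0.10 (SE 0.31) had an adjusted p of 0.886.

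Among the membrane-bound enzymes and the gelatinase, Mmp23 passed the threshold. It was at 39.1 and 20.3 FPKM with gLmna-2, against 66.3 and 48.7 FPKM with gLmna-1. Both gLmna-1 libraries were above both gLmna-2 libraries, and the change was −0.98 (SE 0.15, adjusted p = 0.00759). Mmp14, the membrane enzyme that activates pro-Mmp2, was at 269 and 197 FPKM with gLmna-2, against 319 and 260.1 FPKM with gLmna-1, a change of −0.32 (SE 0.11, adjusted p = 0.103). Mmp2 was at 337 and 174 FPKM with gLmna-2, against 379.4 and 278 FPKM with gLmna-1, a change of −0.42 (SE 0.15, adjusted p = 0.124). Both were lower with gLmna-2 in each mouse, and their groups overlapped. Mmp19 was at 37.9 and 28.6 FPKM with gLmna-2, against 33.7 and 35.6 FPKM with gLmna-1, and moved in opposite directions in the 2 mice (change −0.07, adjusted p = 0.758).

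The 3 inhibitors were higher with gLmna-2. Timp1, which binds most secreted metalloproteases and blocks Mmp14 poorly, was at 1330.5 and 2049 FPKM with gLmna-2, against 967 and 1078 FPKM with gLmna-1 (change 0.69, SE 0.16, adjusted p = 0.0297). Timp2 was at 1076 and 1206 FPKM with gLmna-2, against 732 and 726 FPKM with gLmna-1 (change 0.64, SE 0.12, adjusted p = 0.0144). Timp3, which also inhibits metalloproteases of the ADAM families, was at 573 and 819.9 FPKM with gLmna-2, against 488 and 445 FPKM with gLmna-1 (change 0.56, SE 0.14, adjusted p = 0.0405). For each inhibitor both gLmna-2 libraries exceeded both gLmna-1 libraries. Ratios within the mice ran from 1.18 and 1.84 for Timp3 to 1.38 and 1.90 for Timp1.

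These 6 calls rested on few libraries. None of the 6 passed without the gLmna-2 library of mouse 1 (adjusted p 0.0516 to 0.115) or without that of mouse 2 (0.0671 to 0.300), 3 of the 6 passed without the gLmna-1 library of mouse 2 (0.0224 to 0.164), and all 6 passed without the gLmna-1 library of mouse 1; Mmp10 and Mmp13 kept their direction throughout. None of the 6 passed in a fit without the mouse as a block (0.0795 to 0.405) or on this genotype's libraries alone (0.186 to 0.321), and the calls described below for single guides and for differences between genotypes were also lost without the block (0.496 to 0.999).

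**Figure D2:**
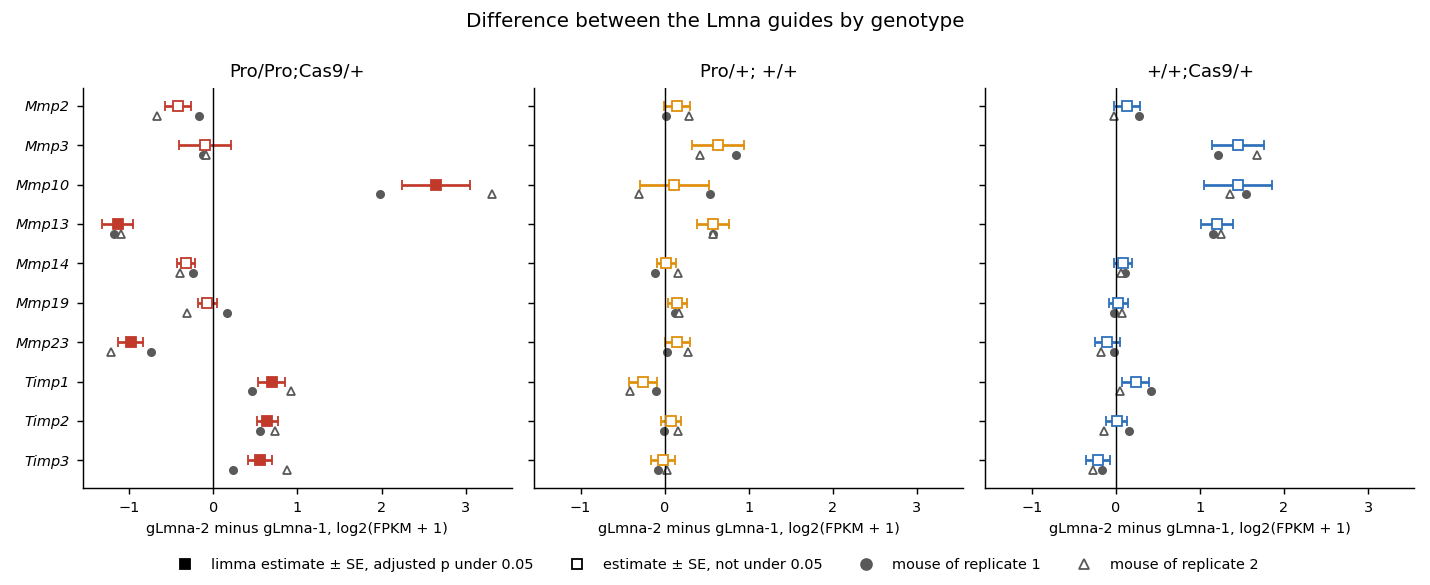
Change of each gene between the Lmna guides (gLmna-2 minus gLmna-1, log2(FPKM + 1)) in each genotype; squares are limma estimates with the standard error as a bar, filled where the adjusted p was under 0.05, and small grey symbols are single mice. In Pro/Pro;Cas9/+ cells Mmp10 is at 2.65 and Mmp13 at −1.14, while in +/+;Cas9/+ cells both are above 0.

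The changes ran through the transcripts and were not the work of a single exon. The table gives a value for each transcript part, here an exon or a piece of one. In both Pro/Pro Cas9 mice, all 10 parts of Mmp23 were lower with gLmna-2 than with gLmna-1, and so were 11 of 12 parts of Mmp13. For Mmp10, 11 of 12 parts were higher in both mice. All 8 parts of Timp1 and all 7 parts of Timp3 were higher in both mice, and for Timp2 it was 6 of 7. Parts of a transcript come from the same RNA molecules and are not replicates.

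**Figure D3:**
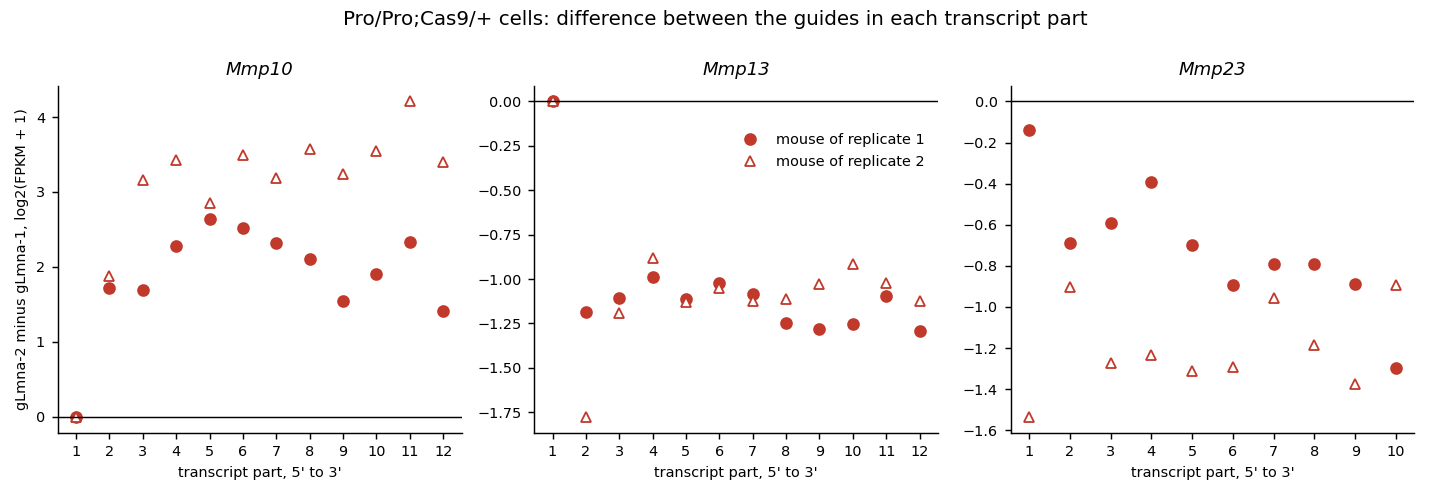
Difference between the guides (gLmna-2 minus gLmna-1, log2(FPKM + 1)) in each transcript part of Mmp10, Mmp13 and Mmp23 in Pro/Pro;Cas9/+ cells, with 1 point per mouse (filled for mouse 1, open for mouse 2). Of 12 parts, 11 of Mmp10 lie above 0 and 11 of Mmp13 below 0 in both mice, with the first part of each at 0, and all 10 parts of Mmp23 lie below 0.

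Against gMock, Pro/Pro Cas9 cells with gLmna-1 had more Mmp23. Mmp23 was at 66.3 and 48.7 FPKM with gLmna-1, against 39.8 and 17.7 FPKM with gMock, with ratios of 1.66 and 2.75 within the mice. The groups did not overlap, and all 10 parts of the transcript were higher with gLmna-1 in both mice. The change was 1.06 (SE 0.15, adjusted p = 0.0268), and Mmp23 was the 1 of 10 genes to pass where 0.977% of all tested genes did. Without the gMock library of mouse 2 its adjusted p was 0.384, and without the gLmna-1 library of mouse 2 it was 0.0521.

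The other genes did not pass in this comparison, and several had sizeable values. Mmp13 was at 373 and 781 FPKM with gLmna-1, against 177 and 603 FPKM with gMock (change 0.72, adjusted p = 0.0979). Timp3 was at 488 and 445 FPKM with gLmna-1, against 700.2 and 784 FPKM with gMock (change −0.67, adjusted p = 0.0627). Mmp10 was at 1.93 and 2.57 FPKM with gLmna-1, against 3.23 and 17.8 FPKM with gMock (change −1.46, adjusted p = 0.119). Timp3 and Mmp10 did not overlap between the groups, and Mmp13 did. Timp2, Mmp2 and Mmp14 had changes of −0.46, 0.52 and 0.36 with adjusted p-values of 0.104, 0.138 and 0.151.

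With gLmna-2, none of the 10 genes passed against gMock in Pro/Pro Cas9 cells, where 0.357% of all tested genes did. By limma, 2 of the 10 and 1272 of the 12593 tested genes had an unadjusted p under 0.05. Mmp10 was at 10.6 and 34.6 FPKM with gLmna-2, against 3.23 and 17.8 FPKM with gMock (change 1.19, adjusted p = 0.323). Timp1 was at 1330.5 and 2049 FPKM with gLmna-2, against 956 and 1508 FPKM with gMock (change 0.46, adjusted p = 0.342). Both were higher with gLmna-2 in each mouse, and both groups overlapped. Of the other genes called between the Lmna guides, Mmp13 was at 164 and 365 FPKM with gLmna-2, against 177 and 603 FPKM with gMock. In the same order, Mmp23 was at 39.1 and 20.3 FPKM, against 39.8 and 17.7 FPKM. Timp2 was at 1076 and 1206 FPKM, against 881 and 1142 FPKM. Timp3 was at 573 and 819.9 FPKM, against 700.2 and 784 FPKM. Mmp23 and Timp3 thus moved in opposite directions in the 2 mice. The 3 comparisons in these cells share libraries, so their values are not independent.

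Wild-type Cas9 cells showed less collagenase with gLmna-1. Mmp13 was at 33.2 and 36.2 FPKM with gLmna-1, against 78.7 and 79.2 FPKM with gMock, or 34.7 ± 2.09 and 79.0 ± 0.363 FPKM (SD, n = 2 each). The groups did not overlap, and 11 of the 12 parts of Mmp13 were lower in both mice. The change was −1.16 (SE 0.19, adjusted p = 0.0245), and Mmp13 was the 1 of 10 genes called where 0.691% of all tested genes were. Without any 1 of the 4 libraries its adjusted p was 0.198 to 0.301.

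The stromelysins were also lower in these cells with gLmna-1, without passing. Mmp3 was at 83.9 and 52.9 FPKM with gLmna-1, against 165 and 100.3 FPKM with gMock (change −0.94, adjusted p = 0.464). Mmp10 was at 5.99 and 5.80 FPKM with gLmna-1, against 18.5 and 7.80 FPKM with gMock (change −0.93, adjusted p = 0.576). For neither gene did the groups overlap, and all 12 parts of Mmp3 and 11 of 12 parts of Mmp10 were lower in both mice. With gLmna-2, these cells had 196 and 172 FPKM of Mmp3, 19.4 and 16.4 FPKM of Mmp10 and 75.2 and 87.6 FPKM of Mmp13. None of the 10 genes passed for gLmna-2 against gMock, where 0.564% of all tested genes did. By limma, 1 of the 10 and 953 of the 12593 tested genes had an unadjusted p under 0.05 there. Between the guides the changes were 1.45 for Mmp3 (SE 0.31, adjusted p = 0.327), 1.45 for Mmp10 (SE 0.41, adjusted p = 0.438) and 1.20 for Mmp13 (SE 0.19, adjusted p = 0.175), so that all 3 clustered genes were higher with gLmna-2 in both mice and none passed. That comparison called 0.0% of all tested genes by limma; 3 of the 10 genes, and 1009 of all tested genes, had an unadjusted p under 0.05.

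In Pro/+ cells, which have no Cas9, none of the 10 genes passed in any comparison of guides, and 0.0% of all tested genes did for gLmna-1 against gMock, gLmna-2 against gMock and gLmna-2 against gLmna-1. Unadjusted limma p-values under 0.05 were found for 0 of the 10 genes for gLmna-1 against gMock, 2 for gLmna-2 against gMock and 1 between the Lmna guides. Over all 12593 tested genes the counts were 173, 566 and 266 in the same order. Mmp13 was at 526 and 305 FPKM with gLmna-2, 353 and 204 FPKM with gLmna-1 and 372 and 139.5 FPKM with gMock. In each mouse the gLmna-2 library was the highest, and its ratio to the gLmna-1 library was 1.49 in both mice (change 0.57). The groups overlapped. Mmp10 stayed at 1.68 to 3.39 FPKM and Timp1 at 503 to 1048 FPKM in these 6 libraries.

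Whether the guides differed by genotype was tested as a difference of the gLmna-2 minus gLmna-1 changes. Mmp13 was the 1 of 10 genes to pass between Pro/Pro Cas9 and wild-type Cas9 cells, where 0.0476% of all tested genes passed. Its change between the guides was −1.14 in Pro/Pro Cas9 cells and 1.20 in wild-type Cas9 cells, a difference of −2.34 (SE 0.26, adjusted p = 0.0249). Between Pro/Pro Cas9 and Pro/+ cells, 2 of 10 genes passed, where 2.4% of all tested genes did. Mmp13 differed by −1.71 (SE 0.26, adjusted p = 0.0245) and Mmp23 by −1.14 (SE 0.21, adjusted p = 0.0356). Mmp13 was thus lower with gLmna-2 than with gLmna-1 in both Pro/Pro Cas9 mice and higher with it in the other 4 mice. Leaving out 1 library ended the call of Mmp13 against wild-type Cas9 cells for 6 of the 8 libraries (adjusted p 0.052 to 0.186), and those of Mmp13 and Mmp23 against Pro/+ cells for both Pro/Pro Cas9 gLmna-2 libraries and each of the 4 Pro/+ libraries (0.0555 to 0.224). The call of Mmp23 was also lost without the Pro/Pro Cas9 gLmna-1 library of mouse 2 (0.0578).

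The other genes did not pass these tests of the difference. The nearest was Mmp10 in Pro/Pro Cas9 against Pro/+ cells, at 2.53 (SE 0.57, adjusted p = 0.0578), followed by Timp1 at 0.95 (SE 0.23, adjusted p = 0.0674). Against wild-type Cas9 cells, where Mmp10 was also higher with gLmna-2, its difference was 1.20 (SE 0.57, adjusted p = 0.55). Mmp3 differed by −1.55 (SE 0.44, adjusted p = 0.23) there. For the mean of both Lmna guides against gMock, none of the 10 genes differed between Pro/Pro Cas9 and wild-type Cas9 cells (0.0476% of all tested genes did) or between Pro/Pro Cas9 and Pro/+ cells (0.0% did), with 1 of the 10 at an unadjusted p under 0.05 in each by limma. The opposite values of Mmp13 for gLmna-1 against gMock, 0.72 in Pro/Pro Cas9 cells and −1.16 in wild-type Cas9 cells, differed by 1.89 (SE 0.26, adjusted p = 0.0708), a test chosen after these values were seen; 0.0318% of all tested genes passed it. The like tests of Pro/Pro Cas9 against Pro/+ cells and of wild-type Cas9 against Pro/+ cells called 0.0% of all tested genes by limma. In these, 4 and 1 of the 10 genes had an unadjusted p under 0.05, as did 1089 and 519 of the 12593 tested genes.

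By genotype, Mmp13 was the member that separated mice with the progeria allele from those without it. The 12 libraries of Pro/Pro Cas9 and Pro/+ mice ranged from 139.5 to 781 FPKM with a median of 359 FPKM, and the 6 libraries of wild-type Cas9 mice ranged from 33.2 to 87.6 FPKM with a median of 77.0 FPKM. No library of the wild-type Cas9 mice reached the lowest of the others. Such a separation in this direction was seen in 1.17% of all tested genes and in the lower direction in 2.12%, and none of the other 9 genes showed it in either direction. The libraries of a mouse are not independent, and the comparison of genotypes rests on 2 mice each.

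Tested over mice, no gene passed. With gMock, Mmp13 was at 177 and 603 FPKM in Pro/Pro Cas9 cells and 372 and 139.5 FPKM in Pro/+ cells, against 78.7 and 79.2 FPKM in wild-type Cas9 cells. Both genotypes with the allele lay above the wild-type Cas9 mice, and their own mice differed widely. The changes were 2.04 (SE 0.67, adjusted p = 0.35) for Pro/Pro Cas9 and 1.52 (SE 0.67, adjusted p = 0.438) for Pro/+ cells. None of the 10 genes passed in either comparison, where 0.397% and 0.413% of all tested genes did. By limma, 1 and 2 of the 10 had an unadjusted p under 0.05, as did 1308 and 1576 of the 12593 tested genes. Averaged over the Lmna guides, Mmp13 was higher in Pro/Pro Cas9 than in wild-type Cas9 cells by 2.75 (SE 0.41, adjusted p = 0.0577). Again 0 of 10 genes passed, where 0.596% of all tested genes did. By limma, 1 of the 10 and 2052 of the 12593 tested genes had an unadjusted p under 0.05 there. Mmp10 with gMock was at 2.82 and 2.17 FPKM in Pro/+ cells, against 18.5 and 7.80 FPKM in wild-type Cas9 cells (change −1.91, SE 0.73, adjusted p = 0.379). Timp2 was at 826 and 599 FPKM in Pro/+ cells, against 1201 and 1109 FPKM in wild-type Cas9 cells (change −0.71, adjusted p = 0.331). For both of these genes the groups did not overlap.

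Markers of cartilage and bone were also unevenly spread over these libraries. Their summed level in Pro/Pro Cas9 cells was 35.3 and 249 FPKM with gLmna-2, 175 and 439.6 FPKM with gLmna-1 and 123 and 442 FPKM with gMock. In Pro/+ cells it was 53.1 to 186 FPKM and in wild-type Cas9 cells 19.7 to 75.8 FPKM. Col2a1, at 2.18 to 402 FPKM over the 18 libraries, made up most of the high sums. Alpl reached 24.4 FPKM, Sox9 20.6 FPKM, Runx2 14.3 FPKM, Ibsp 4.99 FPKM and Acan 3.50 FPKM. Of the 8 markers, 6 were tested between the Lmna guides in Pro/Pro Cas9 cells, where Mmp13 fell: 2 fell, against 3.03% of all tested genes, 0 rose, 2 of the 6 had a positive change and the median change was −0.43. Bglap was at 0 in 6 libraries and did not pass 0.337 FPKM. Hypertrophic cartilage and bone cells are known to make Mmp13; the part of such cells in these values was not tested.

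**Figure D4:**
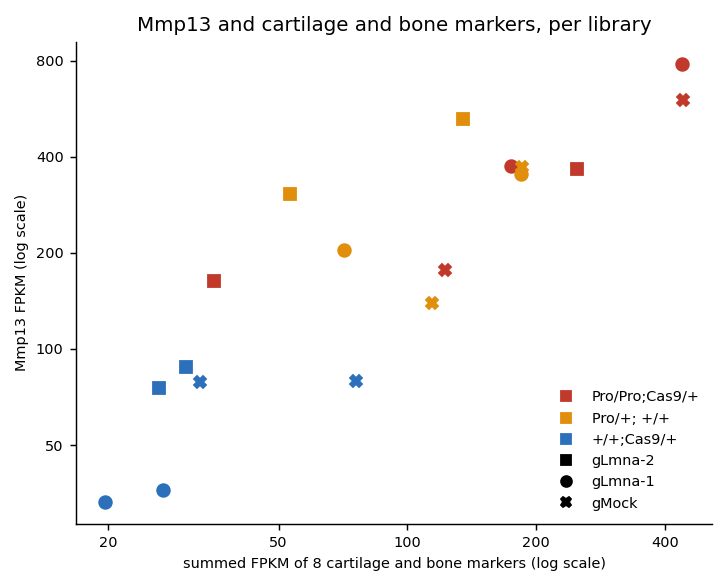
Mmp13 FPKM against the summed FPKM of 8 cartilage and bone markers, both on log scales, with 1 point per library coloured by genotype and shaped by guide. The 6 +/+;Cas9/+ libraries lie at or below 87.6 FPKM of Mmp13 at marker sums of 19.7 to 75.8 FPKM, and the Pro/Pro;Cas9/+ gLmna-2 library of mouse 1 has 164 FPKM of Mmp13 at a sum of 35.3 FPKM.

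The macrophage markers differed between the same libraries. Their sum was 1666 and 854 FPKM with gLmna-2, 512 and 1275 FPKM with gLmna-1 and 648 and 791 FPKM with gMock in Pro/Pro Cas9 cells, against 75.6 to 453 FPKM in wild-type Cas9 cells. Pro/+ cells had 80.0 to 650 FPKM. Between the Lmna guides in Pro/Pro Cas9 cells the 2 mice moved in opposite directions in this sum, and 0 of 10 markers passed; 9 of the 10 had a positive change, with a median of 0.58. Mmp12, the macrophage elastase, was at 8.04 and 24.9 FPKM with gLmna-2, against 1.58 and 11.4 FPKM with gLmna-1 (change 1.43, SE 0.35, adjusted p = 0.0357). This call was lost without any 1 of the 4 libraries (adjusted p 0.0569 to 0.296) and under 5 of the 7 other settings tried. The part of macrophages in the metalloprotease values was not tested.

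Markers of other cell types also moved between the Lmna guides in Pro/Pro Cas9 cells. Over all tested genes 6.92% were called higher and 3.03% lower there. Of 5 skeletal muscle markers 2 were tested, and both were higher with gLmna-2, with a median change of 1.28. The summed level of the 5 was 34.6 and 41.9 FPKM with gLmna-2, against 13.7 and 8.69 FPKM with gLmna-1. Nearly all of it was Acta1, at 6.42 to 65.3 FPKM over the 18 libraries. Des did not pass 1.62 FPKM and Ckm did not pass 0.0902 FPKM. Myf5, a factor of muscle precursors, was at 0 in all 18 libraries, and Myod1 was at 0 in 15. Of 9 fibroblast markers 1 was higher and 2 were lower, and of 3 tested keratinocyte markers 1 was higher and 1 was lower. The sum of all 8 keratinocyte markers was 10.6 and 13.2 FPKM with gLmna-2, against 4.81 and 5.82 FPKM with gLmna-1. The part of these markers' cells in the values of the metalloproteases and inhibitors was not tested.

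The ratio of enzyme to inhibitor transcripts was highest with gLmna-1 in both Pro/Pro Cas9 mice. The summed FPKM of the 7 metalloproteases was divided by that of the 3 inhibitors. The ratio was 0.322 and 0.262 with gLmna-2, 0.589 and 0.741 with gLmna-1 and 0.354 and 0.370 with gMock. Both gLmna-1 libraries stood above the other 4 libraries of these mice. In Pro/+ cells the ratio was 0.575 and 0.843 with gLmna-2, 0.460 and 0.649 with gLmna-1 and 0.462 and 0.503 with gMock, and in wild-type Cas9 cells it was 0.306 and 0.384 with gLmna-2, 0.268 and 0.291 with gLmna-1 and 0.267 and 0.271 with gMock. In these 4 mice the gLmna-2 library was the highest of the mouse. A ratio of transcripts is not a ratio of active proteins, and it was not tested. The sums in this ratio hold the genes called between the Lmna guides, so it is not separate from those calls.

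**Figure D5:**
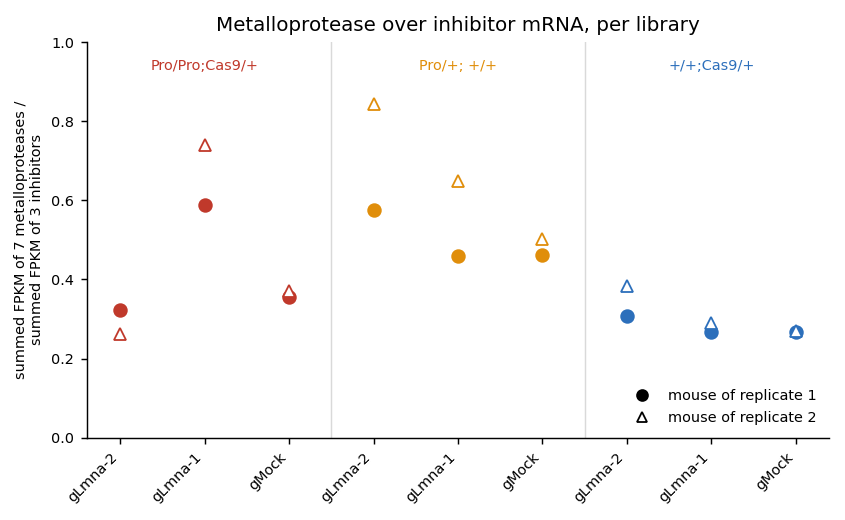
Summed FPKM of 7 metalloproteases divided by that of 3 tissue inhibitors in each library, by genotype and guide. In Pro/Pro;Cas9/+ cells the ratio is 0.322 and 0.262 with gLmna-2, 0.589 and 0.741 with gLmna-1 and 0.354 and 0.370 with gMock.

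Within mice, some of the enzymes varied together and others did not. After each mouse's mean was subtracted, Pearson's r over the 18 libraries of 6 mice was 0.93 between Mmp2 and Mmp14, 0.88 between Mmp14 and Mmp23 and 0.87 between Mmp2 and Mmp23. The gelatinase and the membrane enzymes thus varied together. Mmp10 varied with Timp2 (0.81) and Timp1 (0.79), less so with Timp3 (0.46), and against Mmp23 (−0.79). Timp3 ran against Mmp14 (−0.82), Mmp2 (−0.81) and Mmp23 (−0.81). The clustered genes Mmp3 and Mmp13 had an r of 0.78, while Mmp10 had 0.38 with Mmp3 and −0.12 with Mmp13. These are descriptions over libraries that share mice and guides and differ in sequencing depth.

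Other genes whose pattern within mice was most like that of a member were sought among 10056 genes with the same measure. For Mmp10 they were Rabgap1l, Aldh3a2 and Arhgef3, each with an r of 0.98. For Mmp13 they were Erp44 (0.94), Ifnar2 (0.92) and Lrpap1 (0.89). For Timp1 they were Osbpl9 (0.94), Nadk (0.94) and Ctnna1 (0.93), and for Mmp3 Gpx8 (0.90), Cd302 (0.90) and Rusf1 (0.89). These genes moved over narrower ranges than the members, such as 34.3 to 42.8 FPKM for Erp44 and 16.7 to 30.1 FPKM for Aldh3a2.

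Of the 16 other metalloprotease genes in the table, 7 were tested, and 9 were too low. Mmp1a, Mmp1b, Mmp7, Mmp9, Mmp20, Mmp21, Mmp25 and Mmp27 stayed below 1 FPKM in all 18 libraries, as did the fourth inhibitor gene, Timp4. In the comparison of gLmna-2 with gLmna-1 in Pro/Pro Cas9 cells 2 of these 7 rose and 0 fell, against 9.96% of all tested genes called. They were Mmp12, described above, and Mmp28, at 2.23 and 3.64 FPKM with gLmna-2, against 1.32 and 2.41 FPKM with gLmna-1 (change 0.46, SE 0.11, adjusted p = 0.0307). The call of Mmp28 was lost without either gLmna-2 library (adjusted p 0.204 without that of mouse 1 and 0.114 without that of mouse 2) or the gLmna-1 library of mouse 2 (0.0822). The median change of the 7 was 0.28.

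Of 14 other inhibitors, activators and receptors that clear metalloproteases, 11 were tested, with 1 higher and 1 lower between these guides and a median change of −0.05; 9.96% of all tested genes were called there. Tfpi2, an inhibitor of matrix-bound serine proteases, rose by 1.07 (SE 0.20, adjusted p = 0.0136), at 1.21 and 2.70 FPKM with gLmna-2, against 0.233 and 0.506 FPKM with gLmna-1. Bsg, or basigin, a surface protein known to raise metalloprotease production in fibroblasts, fell by 0.42 (SE 0.08, adjusted p = 0.0171), at 823 and 779 FPKM with gLmna-2, against 1143 and 999.6 FPKM with gLmna-1. Pcsk6, a proprotein convertase, passed in another comparison: averaged over the Lmna guides it was lower in Pro/Pro Cas9 than in wild-type Cas9 cells by −0.95 (SE 0.12, adjusted p = 0.0457). It was at 4.19 to 5.10 FPKM in the 4 Pro/Pro Cas9 libraries, against 8.29 to 11.2 FPKM in the 4 wild-type Cas9 libraries. Without any 1 of the 4 mice the adjusted p of Pcsk6 was 0.153 to 0.230, and the calls of Tfpi2 and Bsg were lost without the gLmna-2 library of mouse 1 (0.0694 and 0.158) or of mouse 2 (0.105 and 0.0871), that of Tfpi2 also without the gLmna-1 library of mouse 2 (0.0602).

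Transcription factors of the AP-1, Ets and Runx families were listed together. AP-1 and Runx factors bind sites like those marked in the promoters above, and Ets sites were not searched for. All 13 on the list were tested, 2 were higher and 0 were lower with gLmna-2 than with gLmna-1 in Pro/Pro Cas9 cells, and the median change was 0.17; 6.92% of all tested genes were called higher there and 3.03% lower. Both were Ets factors. Etv4 was at 8.68 and 12.6 FPKM with gLmna-2, against 3.42 and 2.44 FPKM with gLmna-1 (change 1.55, SE 0.22, adjusted p = 0.00604), and this change differed from that in Pro/+ cells by 1.57 (SE 0.31, adjusted p = 0.0387). Etv5 was at 8.56 and 9.86 FPKM with gLmna-2, against 6.15 and 6.62 FPKM with gLmna-1 (change 0.47, SE 0.11, adjusted p = 0.0311). In wild-type Cas9 cells Etv4 was at 16.6 and 12.4 FPKM with gLmna-2, against 10.98 and 6.64 FPKM with gLmna-1, and its change there was not called different from that in Pro/Pro Cas9 cells. The call of Etv4 was lost without the gLmna-2 library of mouse 2 (adjusted p = 0.0546), that of Etv5 without either gLmna-2 library or the gLmna-1 library of mouse 2 (0.120 to 0.199). The difference of Etv4 from Pro/+ cells was lost without either Pro/Pro Cas9 gLmna-2 library or any 1 of the 4 Pro/+ libraries (0.106 to 0.224). None of the 7 Fos and Jun genes and neither Runx gene passed in any comparison.

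Among 14 matrix proteins that metalloproteases cut, 13 were tested, of which 3 were higher and 3 lower between these guides, with a median change of −0.06; over all tested genes 6.92% were higher and 3.03% lower. The 3 that fell were fibrillar collagens, substrates of Mmp13. The fibrillar collagens Col1a2 and Col5a1 were also tested and did not pass in either direction. Col1a1 and Col3a1 are also the 2 fibroblast markers counted as lower above. Col1a1 was at 1755 and 1123 FPKM with gLmna-2, against 2895 and 2060.5 FPKM with gLmna-1 (change −0.80, adjusted p = 0.0294). Col3a1 was at 314 and 116 FPKM with gLmna-2, against 531 and 462 FPKM with gLmna-1 (change −1.37, adjusted p = 0.0219). Col2a1, the collagen of cartilage and also among the cartilage and bone markers above, fell by 2.31 (limma, adjusted p = 0.0307). Those that rose included Tnc, or tenascin-C, at 247 and 254 FPKM with gLmna-2, against 139.7 and 112 FPKM with gLmna-1 (change 1.00, adjusted p = 0.00862), and Col4a1, a basement membrane collagen (change 0.31, adjusted p = 0.0405). The change of Tnc differed from that in Pro/+ cells by 1.23 (SE 0.22, adjusted p = 0.034); this call was lost without 7 of the 8 libraries (0.0628 to 0.218) and kept without the Pro/Pro Cas9 gLmna-1 library of mouse 1. All 5 named changes between the guides were lost without the gLmna-2 library of mouse 1 (0.0687 to 0.204), and without that of mouse 2 for Tnc, Col1a1, Col3a1 and Col4a1 (0.0682 to 0.251). Col1a1 and Col3a1 were also lost without the gLmna-1 library of mouse 2 (0.112 and 0.0631), and Col2a1 and Col4a1 without that of mouse 1 (0.128 and 0.0795). Without the mouse as a block, the calls between guides named for these 4 lists were lost, except that of Etv4 between the Lmna guides in Pro/Pro Cas9 cells. In the comparisons not named here none of the genes of these 4 lists passed.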

How the data were processed

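The submitters' processing notes name FastQC 0.11.2, STAR 2.4.0k, HOMER and the build mm10. Per the file headers, the deposited values are FPKM over exons with the parts of a transcript kept apart, made by the authors; part lengths in bases, another unit, were also deposited. The table holds 404759 parts of 36795 transcripts in 24 library columns, of which 18 match labelled samples and 6 were not used. Parts were combined into transcripts by length, since rows of genes had been assumed, and named from RefSeq (35440) or GENCODE (188); 1167 stayed unnamed. The transcript with the highest mean stood for each symbol. Of the 15466 to 19012 low nonzero values checked per library, 99.8% to 100% were whole multiples of 1 read (tolerance 0.05). The size of this step gave the depths, and intervals from them would cover counting error only.

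A gene was tested if 2 or more libraries had 1 FPKM or more (12593 genes). The test was limma 3.58.1 with a trended variance on log2(FPKM + 1), run in R 4.3.3. Python 3.11.15 with matplotlib 3.10.9, pandas 2.3.3 and numpy 2.4.6 made the other tables and the figures. Guide comparisons used all 18 libraries with the mouse as a block (6 residual degrees of freedom), because the labels name the mouse behind each library. After group means were removed, libraries of a mouse correlated at 0.47 to 0.73 in Pro/+; +/+ and 0.18 to 0.59 in +/+;Cas9/+ mice. In Pro/Pro;Cas9/+ mice r was −0.02 between gLmna-1 and gLmna-2, 0.13 between gMock and gLmna-1 and 0.78 between gMock and gLmna-2. Genotypes were compared over 6 mice (3 degrees of freedom). The p-values are two-sided and adjusted by Benjamini-Hochberg over all tested genes, with a threshold of 0.05. The script was tested on simulated data. Every member is described; from the other lists up to 4 genes with the smallest p among those that passed are named with values, and Col2a1 and Col4a1 beyond that were chosen after their values were seen. One gene that this rule names is not reported here. Genes of like pattern are the 3 of highest r. Members and lists were chosen with earlier results of these data known. Alternatives were the pseudocount, the filter, the block, the libraries in the fit, median-of-ratios scaling, voom on the recovered reads, the mean over transcripts and leaving out each library.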

Additional observations from a re-analysis of the deposited data

Results flagged for a closer look

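The effect of the guides on Mmp13 differed between genotypes. The gLmna-2 minus gLmna-1 change was −1.14 in Pro/Pro Cas9 cells, against 1.20 in wild-type Cas9 cells and 0.57 in Pro/+ cells. The tests of these differences gave −2.34 (limma, adjusted p = 0.0249) and −1.71 (adjusted p = 0.0245) on the log2(FPKM + 1) scale. Mmp23 differed between Pro/Pro Cas9 and Pro/+ cells by −1.14 (adjusted p = 0.0356).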

How the results depend on the processing

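No named result changed direction. Of 380 values for 32 named gene results under the alternatives, 217 kept their side of the threshold, 156 lost it and 7 gained it. The counts below give members called and, after the slash, all genes called. For gLmna-1 against gMock in Pro/Pro Cas9 cells (1 / 123) they were 0 / 6 with no filter on low values, 0 / 0 with only that genotype's libraries in the fit and 2 / 216 with voom. For gLmna-2 against gLmna-1 in Pro/Pro Cas9 cells (6 / 1254) they were 3 / 1220 with no filter and 0 / 0 with only that genotype's libraries; with median-of-ratios scaling 4 members passed, and Timp1 and Timp3 did not. For gLmna-1 against gMock in wild-type Cas9 cells (1 / 87) the members were 0 with no filter, and all genes were 21 with only that genotype's libraries. For the difference of the gLmna-2 minus gLmna-1 changes between Pro/Pro Cas9 and wild-type Cas9 cells (1 / 6) they were 0 / 0 with no filter and 0 / 0 with only those genotypes' libraries, and all genes were 10 with median-of-ratios scaling and 19 with voom. For that between Pro/Pro Cas9 and Pro/+ cells (2 / 302) they were 0 / 50 with no filter, 0 / 2 with only those genotypes' libraries and 4 / 463 with voom. Fits of 1 genotype have fewer degrees of freedom, and without the filter more genes share the adjustment.

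Most calls depended on the mouse block. Over all tested genes, the gLmna-1 and gLmna-2 libraries of a Pro/Pro Cas9 mouse correlated at −0.02 after group means were removed. With no replicate block the same 5 comparisons, in the order above, gave 0 / 0, 0 / 59, 0 / 60, 0 / 0 and 0 / 1, and the adjusted p of the 6 genes between the Lmna guides in Pro/Pro Cas9 cells was 0.0795 to 0.405. In the other comparisons no member was called with or without the block.

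Leaving out 1 library at a time gave, in the same order, 0 to 6 members and 0 to 1772 genes, 0 to 8 members and 140 to 2637 genes, 0 members and 0 to 45 genes, 0 to 5 members and 0 to 548 genes, and 0 to 7 members and 0 to 2058 genes. The difference of the gLmna-1 minus gMock changes, added after the data were seen, gave 0 to 1 member between Pro/Pro Cas9 and wild-type Cas9 cells and 0 to 3 between Pro/Pro Cas9 and Pro/+ cells. All other comparisons gave 0 throughout. In guide comparisons, p-values measure how far the changes differ between the 2 mice of a genotype, pooled over the 3 genotypes. In genotype comparisons they measure the spread of levels between mice. Both rest on 2 mice per genotype. A group left with 1 library is taken to vary like the others.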
